A study of Mus musculus with 6 samples.

Results

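Complement component genes are described here in CD31-enriched cells of the mouse liver, sorted by a reporter of p16 promoter use. The genes are a list fixed by name, C1qa, C1qb, C1qc, C2, C3, C4b, C6, Cfp and Cfb, and all 9 were found by symbol among the 35275 genes of the count table. Poly-A RNA was sequenced from 3 GFP-positive and 3 GFP-negative libraries. The mice were p16-Cre/Rosa26-mTmG animals aged 1 year, and the liver cells behind each library had been enriched with magnetic beads against CD31, an endothelial surface protein that some leukocytes carry too. In these mice a Cre recombinase under the p16 promoter switches a membrane reporter from a red protein to GFP, so that green marks use of that promoter by the cell itself or by an ancestor. GFP-positive cells are thus marked by past or present promoter use, and GFP-negative cells carry the same 2 alleles without the switch. Per the labels' protocols, bead-enriched cells were cultured in endothelial medium, and the sources used here do not say whether RNA was taken before or after that step. No animal or batch is named in the labels, so p-values rest on variation among these libraries that may be technical only.

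Complement is a cascade of plasma proteins that tags particles for uptake, attracts leukocytes and perforates membranes. It is started by C1q bound to antibody or debris (the classical pathway), by lectins bound to sugars, or by spontaneous turnover of C3 (the alternative pathway), and all routes meet at the cleavage of C3. In the liver, hepatocytes secrete most of the circulating components, while C1q comes mainly from macrophages such as Kupffer cells, the resident macrophages of the sinusoids, and properdin from leukocytes.

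The libraries held 16766556 to 17849620 counts in the GFP-positive and 18067411 to 22627555 counts in the GFP-negative group. Cdkn2a, which encodes p16, had 15, 27 and 7 counts in GFP-positive libraries and 0 in each GFP-negative library. These are counts for the whole gene, and they were too few for it to be tested. Pecam1, which encodes CD31, averaged 453 ± 58.5 CPM (counts scaled to library size) in GFP-positive libraries, compared with 342 ± 41.0 CPM in GFP-negative libraries (SD, n = 3 each). Its log2 fold change of 0.40 ± 0.15 (SE) did not pass the test (edgeR adjusted p = 0.123). The groups also differed in the cell types whose markers they carried. The summed level of 10 Kupffer cell markers ran from 13649.8 to 14971 CPM in GFP-positive libraries, compared with 866 to 1159 CPM in GFP-negative libraries. For 10 sinusoidal endothelial markers it ran from 12839 to 13849.7 CPM in GFP-positive libraries, compared with 5004 to 5595 CPM in GFP-negative libraries. For 8 B cell markers it ran from 75.7 to 164 CPM in GFP-positive libraries, compared with 12232 to 13273 CPM in GFP-negative libraries. In such mixed samples, fewer cells of a type and less RNA per cell cannot be told apart.

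Promoter sequences show where 3 of these genes start, 2 that were much higher in GFP-positive libraries and 1, C3, that was not. They are taken from RefSeq on GRCm38.p6, for which 5 of the 9 genes had an entry (C1qb, C1qc, C3, C6 and Cfp), and each runs from 250 bases before to 50 bases after the gene's start, 5′ to 3′ on the gene's own strand. Capitals mark matches, on either strand, to any of 5 motifs. The motifs were GAGGAAGT (Ets/PU.1-type), TGCTGAC (Maf half-site), TTGCNNAA (C/EBP-type, N being any base), an interferon response motif and an NF-kB-type motif. The interferon response motif was GAAA, then NN, then GAAA. The NF-kB-type motif was GGGA, then NNNN, then CC. Its middle bases were left free, so a match marks these letters only and not a known NF-kB site. The windows lie at chr4:136886151-136886450 (C1qb, minus strand), chr4:136892865-136893164 (C1qc, minus strand) and chr17:57228087-57228386 (C3, minus strand).
C1qb: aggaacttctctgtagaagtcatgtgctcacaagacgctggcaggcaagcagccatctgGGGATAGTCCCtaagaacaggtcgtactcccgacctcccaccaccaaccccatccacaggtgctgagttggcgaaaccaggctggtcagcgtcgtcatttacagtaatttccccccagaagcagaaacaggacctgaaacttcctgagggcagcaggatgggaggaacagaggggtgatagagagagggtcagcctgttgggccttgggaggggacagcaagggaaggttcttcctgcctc
C1qc: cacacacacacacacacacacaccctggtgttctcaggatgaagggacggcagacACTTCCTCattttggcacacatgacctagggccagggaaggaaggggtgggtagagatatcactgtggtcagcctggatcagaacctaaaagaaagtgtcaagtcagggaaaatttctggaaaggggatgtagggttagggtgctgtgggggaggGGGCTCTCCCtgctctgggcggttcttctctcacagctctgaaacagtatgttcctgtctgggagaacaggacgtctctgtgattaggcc
C3: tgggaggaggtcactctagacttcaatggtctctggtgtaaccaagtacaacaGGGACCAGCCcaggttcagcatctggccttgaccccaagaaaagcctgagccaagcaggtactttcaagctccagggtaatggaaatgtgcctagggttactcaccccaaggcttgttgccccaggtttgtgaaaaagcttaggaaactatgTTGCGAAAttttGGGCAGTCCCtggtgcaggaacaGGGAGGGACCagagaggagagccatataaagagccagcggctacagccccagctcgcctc

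The C1qc window held GAGGAAGT on its opposite strand, at bases 56 to 63 counted from the 5′ end, and this motif was in 3.2% of the 32851 promoters searched. The C3 window held the C/EBP-type TTGCGAAA at bases 206 to 213, a motif found in 10.8% of promoters. It also held 3 NF-kB-type matches, which 20.7% of promoters contain at least once. Windows of C1qb and C1qc had an NF-kB-type match too, in C1qb at overlapping positions on both strands. No match to any of the 5 motifs lay in the windows of C6 and Cfp. The Maf half-site, in 4.67% of promoters, and the interferon response motif, in 3.44%, were in none of the 5 windows. These are descriptions of letters in the windows and not of binding.

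GFP-positive libraries held far more transcripts of 7 of the 9 complement components, while C3, the protein on which every route of the cascade converges, stood at nearly the same level in both groups. Transcripts of the 3 C1q chains were 13.6 to 15.1 times as abundant in GFP-positive as in GFP-negative libraries, properdin 12.3 times, C4b 10.4 times, C6 9.43 times and C2 6.74 times, as ratios of mean CPM. Passing an adjusted p of 0.05 in edgeR's quasi-likelihood test across 12122 genes, 7 components were higher, 0 were lower and 2, C3 and Cfb, did not pass. Over all genes tested, 17.8% passed in either direction, 7.65% being higher and 10.1% lower in GFP-positive libraries. The median log2 fold change of the 9 components was 3.38, against −0.09 over all genes tested. In 8 of the 9 the GFP-positive and GFP-negative libraries did not overlap, all 8 higher, which held for 18.5% of all genes tested.

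**Figure D1:**
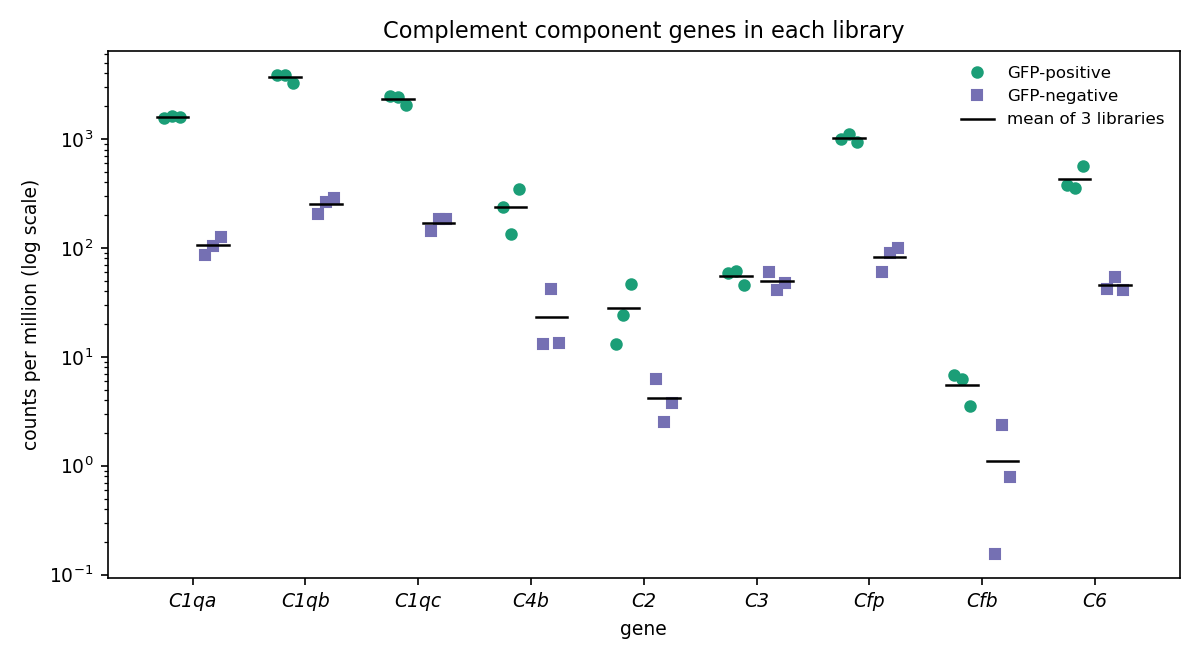
Level of each complement component gene in CPM (log scale) in the 3 GFP-positive (circles) and 3 GFP-negative (squares) libraries, with a bar at each mean. C3 is the gene whose groups overlap, and the C1q chains and Cfp have the highest levels and the tightest GFP-positive points.

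C1q is the recognition molecule of the classical pathway and is built from 3 related chains, each the product of its own gene. The 3 genes lie next to each other on chromosome 4. C1qa (ENSMUSG00000036887), the A chain, measured 1550.7, 1625 and 1593 CPM in GFP-positive libraries, compared with 85.2, 103 and 127 CPM in GFP-negative libraries. All 3 GFP-positive libraries were thus within a narrow band far above the highest GFP-negative library. The log2 fold change was 3.92 ± 0.17 (SE; edgeR adjusted p = 3.7e-05). C1qb (ENSMUSG00000036905), the B chain, measured 3862, 3892 and 3270.3 CPM in GFP-positive libraries, compared with 203, 263 and 287 CPM in GFP-negative libraries, a log2 fold change of 3.87 ± 0.16 (adjusted p = 3.3e-05). GFP-positive library 3 was the lowest of its group for this chain and for C1qc. C1qc (ENSMUSG00000036896), the C chain, measured 2464, 2416 and 2066 CPM in GFP-positive libraries, compared with 143, 184 and 185 CPM in GFP-negative libraries, a log2 fold change of 3.76 ± 0.15 (adjusted p = 2.5e-05). Together the 3 chains took 0.749 ± 0.0438% of all counts in GFP-positive libraries against 0.0530 ± 0.00903% in GFP-negative libraries (SD over 3 libraries).

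The proportions of the 3 chains were much the same in every library although their total differed. Counts were divided by each gene's exon length in the GENCODE M21 annotation, which may not be the annotation the authors counted with, and expressed as a share of the 3 chains. C1qb made up 55.3 ± 1.44% of this sum in GFP-positive libraries against 54.9 ± 0.478% in GFP-negative libraries (SD over 3 libraries). C1qa made up 25.1 ± 1.94% in GFP-positive libraries against 24.0 ± 1.29% in GFP-negative libraries, and C1qc 19.6 ± 0.561% against 21.1 ± 1.03%. Two-sided exact permutation tests of these shares gave p = 0.8 for C1qb, 0.6 for C1qa and 0.2 for C1qc, where 3 libraries against 3 cannot go below 0.1. The difference for C1qc, of −1.47 percentage points, was the widest of the 3.

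**Figure D2:**
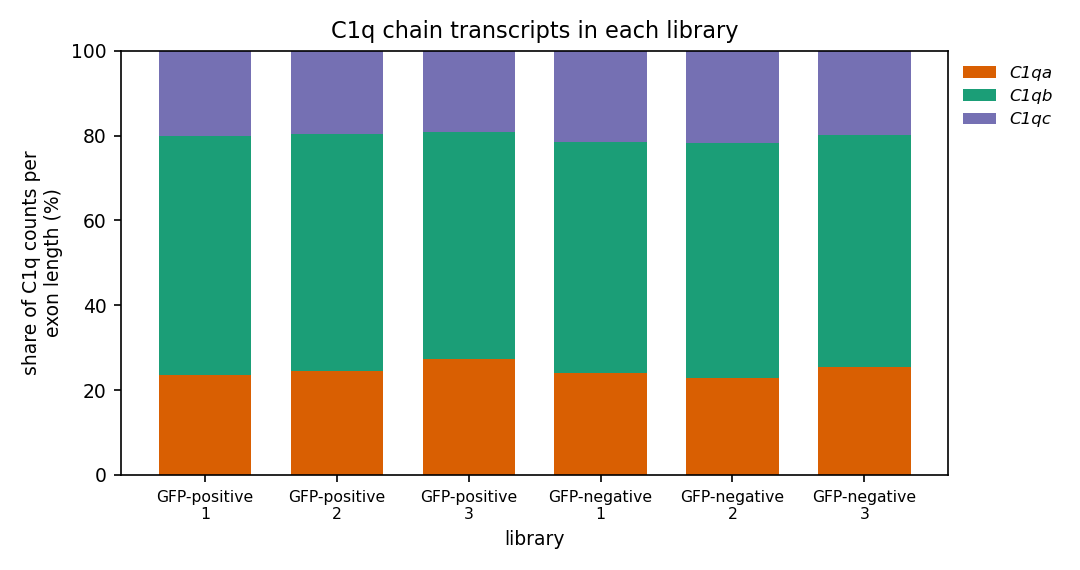
Share of each C1q chain gene (%) in the summed C1q counts per exon length, by library, GFP-positive libraries on the left and GFP-negative libraries on the right. C1qb takes between 53.6% and 56.2% in all 6 libraries.

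After C1q has bound, the classical pathway runs through C4 and C2, whose fragments form the enzyme that cleaves C3. C4b (ENSMUSG00000073418), which encodes mouse complement C4, measured 237, 133 and 349 CPM in GFP-positive libraries, compared with 13.2, 42.4 and 13.4 CPM in GFP-negative libraries. The groups did not overlap, but both spread widely, with GFP-positive library 2 low and GFP-negative library 2 high within their groups. The log2 fold change was 3.38 ± 0.60 (SE; edgeR adjusted p = 0.0115), and 4.16 without GFP-negative library 2. C4b is nearly identical to its neighbour C4a, which had 0, 68 and 1 counts in GFP-positive and 0, 3 and 207 counts in GFP-negative libraries, so that reads shared by the pair make C4b uncertain. With the counts of both genes summed, the log2 fold change was 3.21 (adjusted p = 0.00902).

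C2 (ENSMUSG00000024371), the protease that C1 activates next to C4, measured 13.1, 24.3 and 46.6 CPM in GFP-positive libraries, compared with 6.20, 2.54 and 3.74 CPM in GFP-negative libraries. Its highest GFP-positive library stood 3.55 times above its lowest, yet none came down to the GFP-negative libraries. The log2 fold change was 2.75 ± 0.74 (SE), just past the threshold (edgeR adjusted p = 0.0444). C2 no longer passed when any library other than GFP-positive library 1 was left out, with adjusted p from 0.0785 (without GFP-positive library 2) to 0.154 (without GFP-positive library 3). Leaving out GFP-negative library 1, 2 or 3 gave 0.0890, 0.126 or 0.127.

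C3 and the factors of the alternative pathway did not move together. C3 (ENSMUSG00000024164), the central component, measured 58.6, 60.7 and 45.4 CPM in GFP-positive libraries, compared with 59.5, 41.2 and 47.2 CPM in GFP-negative libraries, and the groups overlapped. Its log2 fold change was 0.15 ± 0.29 (SE; edgeR adjusted p = 0.784), with a 95% interval of −0.52 to 0.83. This interval lies below the point estimates of the other 8 components, but inside the wide interval of Cfb given below. Properdin, encoded by Cfp (ENSMUSG00000001128), stabilises the alternative pathway's C3-cleaving enzyme. It measured 1003, 1116 and 943 CPM in GFP-positive libraries, compared with 59.8, 89.6 and 99.8 CPM in GFP-negative libraries, a log2 fold change of 3.62 ± 0.22 (adjusted p = 0.000132). The GFP-positive libraries lay close together and far above every GFP-negative library. Factor B, encoded by Cfb (ENSMUSG00000090231), is the protease of that enzyme. It held 109, 108 and 64 counts in the GFP-positive and 3, 43 and 18 counts in the GFP-negative libraries, or 6.75, 6.29 and 3.55 CPM in GFP-positive libraries, compared with 0.155, 2.37 and 0.783 CPM in GFP-negative libraries. The groups did not overlap, but the GFP-negative libraries differed by up to 15.3 times among themselves, and the log2 fold change of 2.32 ± 1.34 did not pass (adjusted p = 0.304, 95% interval −0.84 to 5.48).

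Counts of C2 and Cfb may be incomplete. The genes neighbour each other on chromosome 17, and in GENCODE M21 a further gene, Gm20547, spans both on the same strand and covers 79.5% of the exon bases of Cfb and 42.8% of those of C2. Gm20547 is in the count table with 0 counts in all 6 libraries. Whether reads in the shared exons were dropped was not tested, and the levels of these 2 genes are uncertain wherever they stand beside those of the others.

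C6 (ENSMUSG00000022181), the component that joins the growing membrane attack complex after C5b, was the terminal component among the 9. It measured 379, 355 and 562 CPM in GFP-positive libraries, compared with 42.3, 53.9 and 41.2 CPM in GFP-negative libraries. GFP-positive library 3 was the highest, as it was for C4b and C2. The log2 fold change was 3.24 ± 0.24 (SE; edgeR adjusted p = 0.000305). Per exon length, the order of mean levels in GFP-positive libraries was C1qb, C1qa, C1qc, Cfp, C6, C4b and C3, at 3378 ± 322, 1528 ± 35.9, 1199 ± 112, 588 ± 50.7, 121 ± 31.9, 42.1 ± 18.9 and 10.7 ± 1.61 CPM per kilobase (SD, n = 3). In GFP-negative libraries the order was the same down to C6, at 231 ± 39.6, 101 ± 20.1, 88.3 ± 12.5, 47.9 ± 12.0 and 12.9 ± 1.98 CPM per kilobase, but C3 at 9.59 ± 1.82 stood above C4b at 4.04 ± 2.95. In GFP-negative libraries 1, 2 and 3, C1qa stood at 82.0, 99.5 and 122 CPM per kilobase, above C1qc at 73.9, 95.1 and 95.8 in each. C6 was also above C3 within each GFP-negative library, narrowly in library 1 (11.9 against 11.6). Across these libraries C6 and C3 met, the lowest C6 library and the highest C3 library both standing at 11.6 CPM per kilobase.

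Precision differed among the components. The coefficient of variation between GFP-positive libraries was 2.35% for C1qa, between 8.63% and 9.54% for Cfp, C1qc and C1qb, and 15.1% for C3. It was 26.2% for C6, 31.4% for Cfb, 45.0% for C4b and 60.9% for C2. In GFP-negative libraries it was 14.1% to 19.9% for the C1q chains, C6 and C3, but 44.9% for C2, 72.9% for C4b and 104% for Cfb. With 1 library left out, the log2 fold change of the C1q chains stayed between 3.65 and 4.07, that of Cfp between 3.43 and 3.77, that of C6 between 3.00 and 3.37 and that of C4b between 3.00 and 4.16, and all 6 genes passed in each such fit. C4b came closest to the threshold, at an adjusted p of 0.0496 with GFP-negative library 1 left out and 0.0488 with GFP-negative library 3 left out.

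Kupffer cell markers were higher in the same libraries, and the C1q chains were close to them in size of difference. Of the 10 markers 9 were higher, 0 lower and 1 did not pass, with a median log2 fold change of 4.04, and among them Clec4f, a lectin of Kupffer cells, averaged 5212 CPM in GFP-positive libraries, compared with 326 CPM in GFP-negative libraries. The level of each component was therefore also expressed against these markers, as its log2 CPM less the mean log2 CPM of the 10 markers in the same library. All 10 weigh equally in this mean, also those uneven among GFP-negative libraries. Of these, Spic had 125, 5 and 13 counts there, and Nr1h3 had 90, 549 and 1072. How far such markers move the values below was not tested. On this scale C1qa stood at 1.12 ± 0.0140 in GFP-positive and 1.26 ± 0.174 in GFP-negative libraries (SD, n = 3 each), a difference of −0.14 ± 0.10 (SE). Differences for C1qb and C1qc were −0.19 ± 0.14 and −0.30 ± 0.14, for Cfp −0.43 ± 0.19, and for C4b −0.58 ± 0.73. The sign for C4b turned to 0.02 without GFP-negative library 2. C6 differed from the markers by −0.86 ± 0.28, with no overlap between −1.06 to −0.40 in GFP-positive and −0.25 to 0.40 in GFP-negative libraries. C2 differed by −1.45 ± 0.63 and Cfb by −1.37 ± 0.98, and of these the groups of C2 did not overlap, nor did those of C1qc. Cfb moved to −2.16 without GFP-negative library 1 and to −0.54 without GFP-negative library 2. C1qa moved to −0.24 without GFP-negative library 1 and to −0.08 without GFP-negative library 3. C1qb moved to −0.29 without GFP-negative library 1, to −0.10 without GFP-positive library 3 and to −0.10 without GFP-negative library 2. C1qc moved to −0.20 without GFP-negative library 2. C3 stood at −3.74 ± 0.242 in GFP-positive and 0.17 ± 0.325 in GFP-negative libraries, a difference of −3.91 ± 0.23. Standard errors on this scale cover the spread between libraries and not that among the markers. The markers' own log2 fold changes ran from 2.89 (Slc40a1) to 4.48 (Vsig4). Those of the C1q chains, Cfp, C4b and C6 lay inside this range, and those of C2, Cfb and C3 lay below it. Two-sided exact permutation tests over the 9 genes gave p between 0.1, the smallest that 3 libraries against 3 allow, and 0.6, or 0.225 to 0.6 after Benjamini-Hochberg adjustment. How much of each component's difference goes with the number of Kupffer cells was not tested.

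**Figure D3:**
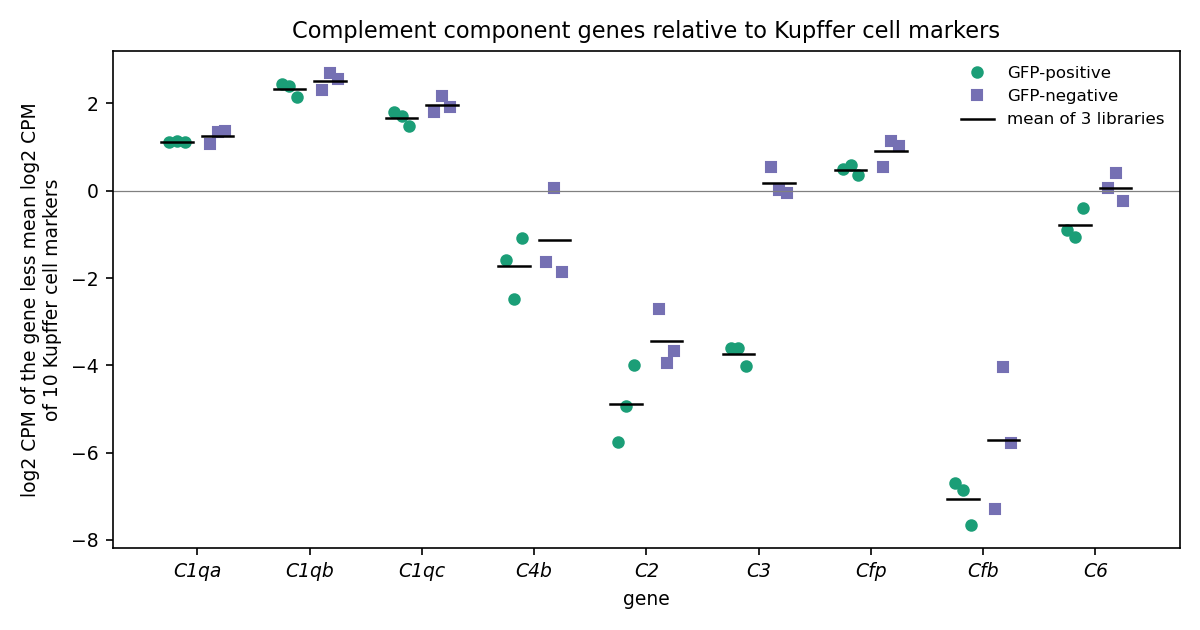
Log2 CPM of each complement component gene less the mean log2 CPM of 10 Kupffer cell markers in the same library, for 3 GFP-positive (circles) and 3 GFP-negative (squares) libraries, with a bar at each mean. The C1q chains lie at similar heights in both groups, with differences of −0.14 to −0.30, while C3 is 3.91 lower in GFP-positive libraries.

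Set against C1q in place of the markers, as log2 CPM less the mean of the 3 chains, C3 differed between GFP-positive and GFP-negative libraries by −3.70 ± 0.29 (SE), with values of −5.60 to −5.35 in GFP-positive and −2.05 to −1.18 in GFP-negative libraries that did not overlap. Differences from C1q were −0.21 ± 0.09 for Cfp, −0.36 ± 0.70 for C4b, −0.65 ± 0.31 for C6, −1.16 ± 0.87 for Cfb and −1.24 ± 0.74 for C2, and for each of these 5 the groups overlapped. With 1 library left out, Cfb reached −1.85 when that was GFP-negative library 1, and −0.40 when it was GFP-negative library 2. C2 moved to −0.76 without GFP-positive library 1 and to −0.77 without GFP-negative library 1. The exact permutation test gave p = 0.1 for C3 and 0.2 to 0.6 for the others, and 0.36 to 0.6 adjusted over the 6 comparisons. The sign for C4b turned to 0.04 without GFP-positive library 2 and to 0.16 without GFP-negative library 2.

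Markers of other cell types moved in different directions. Of 12 hepatocyte markers 0 were higher, 4 lower and 8 did not pass, with a median log2 fold change of −0.63 and a summed level of 1468 to 2029 CPM in GFP-positive libraries, compared with 2777 to 3117 CPM in GFP-negative libraries. Only 1 was lower when GFP-negative library 3 was left out, and 2 were when GFP-positive library 1 was. Albumin, for example, averaged 654 CPM in GFP-positive libraries, compared with 1031 CPM in GFP-negative libraries, so transcripts of hepatocytes were present in all 6 libraries beside those of C3, C2, C6, C4b and Cfb, which hepatocytes also make. Of 10 sinusoidal endothelial markers 10 were higher, with a median of 1.34. Set against the mean log2 CPM of these markers, C3 differed by −1.24 ± 0.26 and the other 8 components by 1.22 to 2.53 (exact permutation p of 0.1 or 0.2, and 0.129 or 0.2 adjusted over the 9). Of 10 tested macrophage and monocyte markers 5 were higher, 1 lower and 4 did not pass, with a median of 3.11 and a summed level of 8028 to 8418 CPM in GFP-positive libraries, compared with 1006 to 1307 CPM in GFP-negative libraries. Of 5 tested stellate cell and fibroblast markers, 3 neutrophil markers and 6 dendritic cell markers, 0 were higher, and 1 dendritic cell marker, Ccr7, which B cells also carry, was lower. All 8 B cell markers were lower, with a median of −6.98, as were 2 of 8 tested T and NK cell markers, with a median of −4.79. Summed stellate cell and fibroblast markers, with a median of 1.86 over those tested, reached 158 to 243 CPM in GFP-positive libraries, compared with 28.4 to 101 CPM in GFP-negative libraries. Summed neutrophil markers reached 1.83 to 8.80 CPM in GFP-positive libraries, compared with 3.22 to 6.23 CPM in GFP-negative libraries. None of 5 mesothelial markers was high enough to be tested. Of the 8 neutrophil markers, Ly6g, Ltf and Ngp had 0 counts in all 6 libraries. S100a9 had 51, 55 and 0 counts in GFP-positive libraries and 0 in each GFP-negative library. S100a8 had 0, 72 and 0 counts in GFP-positive and 25, 26 and 28 counts in GFP-negative libraries. Camp had 18, 16 and 0 counts in GFP-positive and 0, 6 and 0 counts in GFP-negative libraries. Retnlg ran the other way, with 0, 0 and 29 counts in GFP-positive and 74, 65 and 43 counts in GFP-negative libraries. Cxcr2 had 10, 8 and 4 counts in GFP-positive and 13, 16 and 3 counts in GFP-negative libraries. The part of these other cell types in the results above was not tested.

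Further complement genes moved in both directions. Of 46 such genes 38 could be tested, 8 were higher, 2 were lower and 28 did not pass, with a median log2 fold change of 0.27, where 7.65% of all genes tested were higher and 10.1% lower. The share of genes called was not compared between these 38 and the 9 components. With 1 library left out, 6 to 9 of the 38 were called, 6 of them without GFP-positive library 2 or GFP-negative library 1 or 2. Among 8 tested genes of the lectin pathway 2 were higher and 6 did not pass, with a median log2 fold change of 1.13. Fcna, ficolin-A, a sugar-binding starter of this pathway, averaged 1317 ± 103 CPM in GFP-positive libraries, compared with 66.8 ± 27.6 CPM in GFP-negative libraries, which is 4.30 ± 0.31 higher in log2 (SE; edgeR adjusted p = 0.000272). Colec11, a collectin, rose by 2.65 ± 0.64 (adjusted p = 0.0305), a call lost without GFP-positive library 1 or 2 or GFP-negative library 1 or 2 (0.0700 to 0.102). The other ficolin gene, Fcnb, had 0 counts in all 6 libraries.

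Of the tested partners of C1q, the 3 protease genes C1ra, C1rl and C1s1, none passed the test, with a median log2 fold change of 0.42. C1ra averaged 25.1 ± 10.5 CPM in GFP-positive libraries, compared with 8.47 ± 1.46 CPM in GFP-negative libraries, with an adjusted p of 0.124. C1s1 had 0, 28 and 140 counts in GFP-positive and 50, 1 and 172 counts in GFP-negative libraries. Of 5 tested terminal components other than C6 none passed either, with a median of −0.45, and Hc, which encodes C5, had 24, 216 and 869 counts in GFP-positive and 215, 75 and 160 counts in GFP-negative libraries. C7, which binds after C6, and Cfd, which cleaves factor B, had 0 counts in all 6 libraries.

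Among 10 tested soluble regulators 2 were higher and 8 did not pass, with a median log2 fold change of −0.17. Clu, clusterin, rose by 0.96 ± 0.24 on the log2 scale (SE; edgeR adjusted p = 0.0337), a call lost without GFP-positive library 2 or 3 or GFP-negative library 1 or 2 (0.0880 to 0.111). Of 12 tested receptors and membrane regulators 4 were higher, 2 were lower and 6 did not pass, with a median of 1.41. Vsig4, a complement receptor of Kupffer cells and a marker in that list, rose by 4.48 ± 0.12 (adjusted p = 9.1e-06), Cd59a, which blocks the membrane attack complex, by 1.58 ± 0.16 (adjusted p = 0.00106), and C5ar1, the receptor for C5a, by 2.45 ± 0.36 (adjusted p = 0.00499). The other higher gene was Cd93, an endothelial and myeloid surface protein, whose call was lost without GFP-positive library 1 or 2 or GFP-negative library 1 or 2 (adjusted p = 0.0598 to 0.0819). Cr2, a C3 fragment receptor of B cells, was lower, with 2, 1 and 1 counts in GFP-positive libraries and 3755, 2596 and 6390 counts in GFP-negative libraries (edgeR adjusted p = 3.7e-05). Cd55, which speeds the decay of the C3-cleaving enzymes, fell by 0.58 ± 0.12 (adjusted p = 0.0207), a call lost without GFP-positive library 2 or any GFP-negative library (0.0523 to 0.0847).

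**Figure D4:**
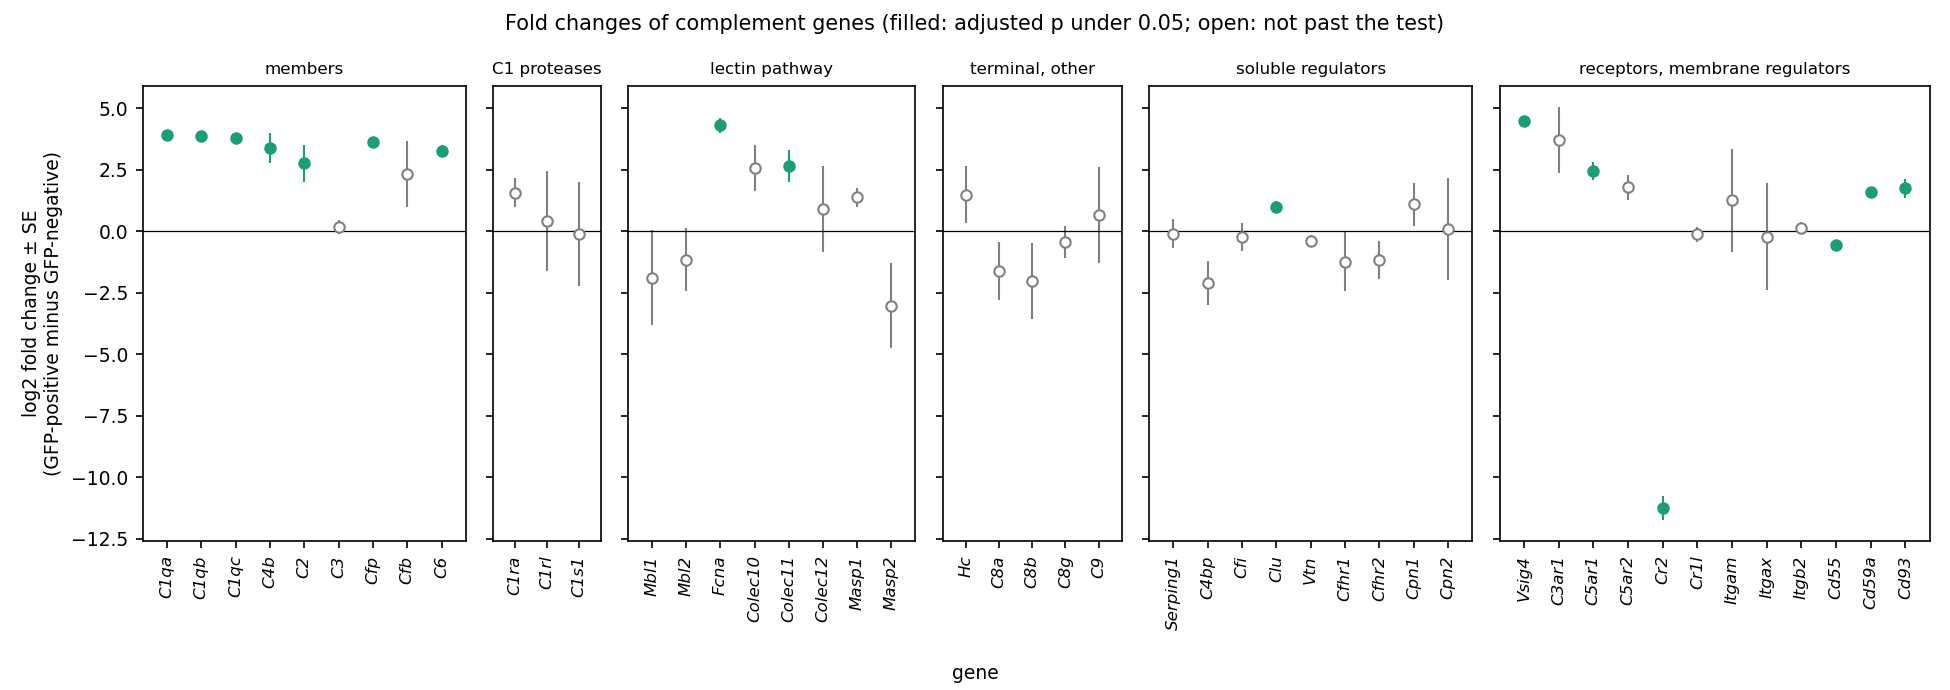
Log2 fold change, GFP-positive minus GFP-negative, with its standard error for the 9 complement component genes (left panel, members) and for 37 of the 38 further complement genes tested, by role. Filled points passed an adjusted p of 0.05, 7 of 9 in the left panel and 9 of the 37 drawn in the others.

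The genes most like these components were sought among 6547 genes whose log2 CPM averaged 4 or more, by the root mean square difference of mean-centred log2 CPM over the 6 libraries. Closest to the mean of the C1q chains were Clec4n (0.0904), Aif1 (0.175), Lyz2 (0.176), Clec4f (0.181) and Cd5l (0.181). Clec4n had 4444, 4673 and 4914 counts in GFP-positive and 287, 371 and 440 counts in GFP-negative libraries. Closest to C4b were Pcolce2 (0.415), Rassf4 (0.448) and Pla2g7 (0.491). Closest to C3 were Idnk (0.0568), Psmb8 (0.0678) and Def8 (0.0681). These points share 6 libraries in 2 groups, so a gene with a like difference between the groups has a small distance.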

How the data were processed

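Raw counts per gene were deposited by the authors as 1 table of whole numbers for 6 libraries, with 35275 Ensembl identifiers, of which 34490 matched a symbol. Per the submitters' processing notes the tools were DESeq 1.18.0, edgeR, HTSeq 0.6.1, RSEM, TopHat2 2.0.12 and Bowtie2 2.2.3, with no roles stated. The sources used here give no genome build, annotation or strand setting, so reads of overlapping genes cannot be told apart.

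The software was DESeq2 1.42.0, limma 3.58.1 and edgeR 4.0.16 under R 4.3.3. Genes passed edgeR's expression filter (minimum count 10), libraries were scaled by TMM, and GFP-positive libraries were set against GFP-negative ones with edgeR's quasi-likelihood test, robust dispersions and Benjamini-Hochberg adjustment over 12122 genes. CPM are counts over TMM-scaled library sizes. Standard errors come from the test statistic. Log2 CPM set against markers or C1q used a prior count of 2. The steps were run on simulated counts that varied less between libraries than these data, so that run does not measure error rates here. Library depth limits Cfb and other genes with few counts. No molecular identifiers are named, so reads may not be independent molecules.

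The 9 components, the 17 gene lists and the tests were chosen with earlier results of these data known. All 9 are named, with Cdkn2a, Pecam1, up to 3 called genes of each further complement list by smallest p, up to 2 called the other way, and the genes most like C1q, C4b and C3 by pattern. A further gene is named as an example where a count rests on it, chosen after its values were seen. Some genes of the further lists are counted but not reported here. Alternatives were another tool, scaling, filter or dispersion, 1 library left out, lymphocyte genes left out, C4a and C4b summed, another prior count and, added after the data were seen, a minimum log2 fold change of 1 and a shorter Kupffer cell list.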

Additional observations from a re-analysis of the deposited data

How the results depend on the processing

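Of the 9 components, 6 or 7 were higher and 0 lower under every one of 14 alternatives, C2 being the gene whose call changed. Its log2 fold change of 2.75 did not pass with limma-voom (adjusted p = 0.101), without the filter on low counts (0.0639), or in 5 of the 6 fits with 1 library left out. All 9 had a positive log2 fold change in every fit, C3 between 0.04 and 0.31. Genes called over the whole table numbered 2157, and 994 to 1810 with 1 library left out, 3225 with DESeq2, 2648 with limma-voom and 1751 with no filter. Further complement genes called numbered 10, and 6 to 9 with 1 library left out, the lowest without GFP-positive library 2 or GFP-negative library 1 or 2, and 15 with DESeq2. With 1 library left out, C4b ran from −0.93 to 0.0225 against the Kupffer cell markers, above 0 without GFP-negative library 2, and from −0.74 to 0.16 against C1q, above 0 without GFP-positive library 2 (0.0354) or GFP-negative library 2. The cause was not tested. The other components kept their sign against the Kupffer cell markers and against C1q, with permutation p-values too coarse to speak of stability. Values against the sinusoidal endothelial markers were not recomputed under alternatives. The median log2 fold change of all genes was −0.12 on library totals alone, −0.19 with limma-voom and −0.27 with no filter, against −0.09. No paired analysis was possible because the labels give the groups no shared replicate number.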

Other observations

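Some interferon-response genes were higher in GFP-positive libraries. Of 13 tested members 3 were higher, 0 lower and 10 did not pass, with a median log2 fold change of 0.92, against −0.09 over all genes tested, of which 7.65% were higher and 10.1% lower. The 3 were Irf7, an interferon regulatory factor, at 2.13 ± 0.27 (SE; edgeR adjusted p = 0.00285), Oasl2, an oligoadenylate synthetase-like protein, at 2.14 ± 0.44 (adjusted p = 0.0194), and Gbp3, a guanylate-binding protein, at 1.80 ± 0.26 (adjusted p = 0.00491). These 3 genes were chosen after their values were seen. Under the alternatives 2 to 4 members were higher and 0 lower. The groups differed in the cell types whose markers they carried, and the part of this in the interferon-response genes was not tested.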
